A study of Mus musculus with 12 samples.

Results

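Control liver is described here from the 3 arrays labelled Control group, out of 12 arrays in the series, as a landscape of which gene classes were bright, moderate or not well above background, and of how far the 3 arrays agreed. The members were chosen by their label alone, without any contrast. The arrays hold liver RNA of female C57BL/6N mice, 1 array per mouse and 3 mice per group. The mice were bought at 6 weeks of age and kept on their diet for 6 months. Control (Ctrl) mice ate a normal formula diet with sucrose and corn starch as carbohydrate. Mice of the RS group had resveratrol added to that diet. In the Dongjin (DJ) group Dongjin rice took the place of starch and sucrose, and in the DJ526 group the rice was DJ526, a resveratrol-enriched line. The 9 arrays of these other groups enter here only where they are named. The 3 Ctrl arrays shared 1 slide and 1 scan, so that spread between slides is not part of their spread. The source name of Ctrl replicate 3 repeats the number of replicate 1 in the labels, but the signals of these arrays were identical in 0 of 39429 probes, and all 3 arrays were kept.

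Most of the liver's mass is hepatocytes. These cells make the proteins of blood plasma, run the urea cycle, store and release glucose, build and burn fat, make bile acids, and modify drugs and steroids with cytochrome P450 and conjugating enzymes. Kupffer cells (resident macrophages), sinusoidal endothelium, stellate cells, bile duct cells (cholangiocytes) and blood cells make up the rest of the tissue.

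The arrays were 1-colour Agilent mouse arrays, on which each probe is a spot of oligonucleotides that binds labelled complementary RNA. A level here is the log2 of a probe's processed signal minus log2 of the array's 75th percentile over probes, averaged over the 3 arrays. A level of 0 is therefore the 75th percentile and each step of 1 doubles the signal. A gene was read by its brightest probe. Brightness also depends on how well a probe binds, so the order of genes is an order of probe signals and not of RNA amounts. Between 73.0% and 79.3% of the spots were well above background, Feature Extraction's flag for a signal clear of its local background. Of 153 negative control spots per array, 1 or 2 carried the flag, and 0 spots were saturated. The 75th percentile lay between 972.73 and 1043.5 signal units.

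Of 39429 probes, 28168 (71.4%) were well above background on all 3 Ctrl arrays and 7406 (18.8%) on none. The 28168 probes were ranked and split into bands: bright for the top 10% (levels 9.31 to 3.63), moderate for the 40% below it (3.63 to -1.57) and dim for the lower 50% (-1.57 to -6.90). Among 20886 genes named through their probe's transcript, 1594 were bright (7.63%), 7726 moderate (37.0%) and 6646 dim (31.8%). A further 1691 (8.1%) were well above background on 1 or 2 arrays only, and 3229 (15.5%) on none. These last are called not detected below, which bounds their signal and does not show that the RNA was missing. Signal was concentrated at the top. The 25 brightest genes held 9.37% of the summed signal of all named genes, the brightest 100 held 26.1% and the brightest 1000 held 74.2%.

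**Figure D1:**
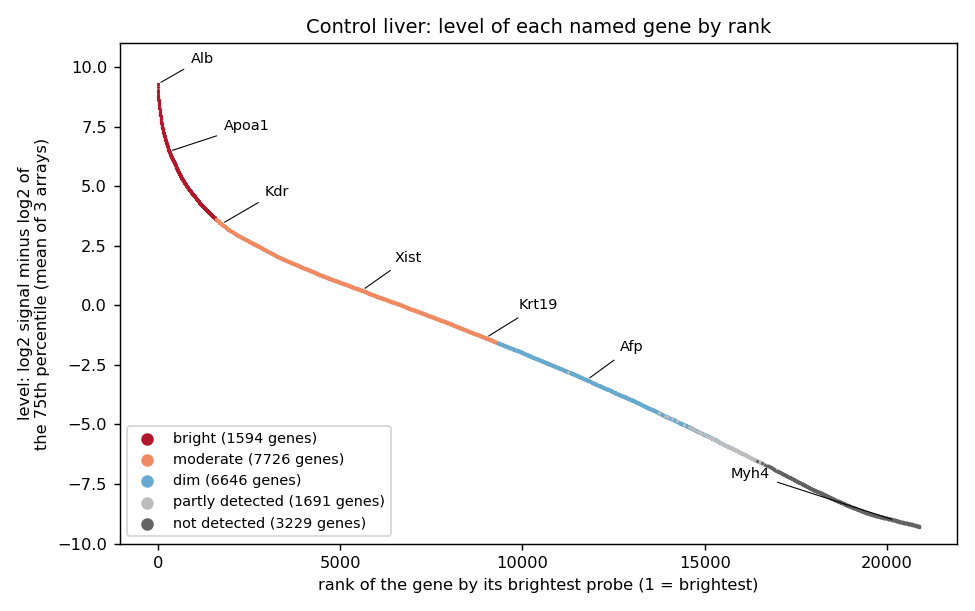
Level of each of 20886 named genes (log2 signal relative to the array's 75th percentile, mean of 3 Ctrl arrays) against its rank by brightest probe, coloured by band. Levels fall steeply over the 1594 bright genes, from 9.31, and then nearly in a straight line to below -9.

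Among the 25 brightest genes, 15 encode proteins that hepatocytes secrete into plasma and 4 belong to the lists of hepatocyte metabolism. Apoa2, an apolipoprotein of high-density lipoprotein, led with levels of 9.31, 9.31 and 9.30 in Ctrl 1, 2 and 3. Alb, serum albumin, followed with 9.34, 9.25 and 9.28. Ambp, the precursor of alpha-1-microglobulin and bikunin, stood at 9.16, 9.12 and 9.22. None of these genes differed by more than 1.07-fold between its highest and lowest array. C3, the central complement protein, read 9.11, 8.98 and 8.90. Trf (transferrin) ranked 6, Apoe (a ligand for lipoprotein uptake) and Serpina1a (a protease inhibitor) both had a mean of 8.99, Fabp1 (a fatty acid carrier within the cell) 8.95 and Ahsg (fetuin) 8.91. Ttr, the thyroxine and retinol-binding-protein carrier, ranked 33 with 8.46, 8.46 and 8.48. Apoa1, the main protein of high-density lipoprotein, ranked 309 with 6.35, 6.36 and 6.68. All 3 hepatocyte markers were thus bright on every array, and Apoa1 was the dimmest of them.

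Of the 25 brightest genes 6 belonged to no list, and several of these rested on 1 of their probes. Glrx2, a mitochondrial glutaredoxin, had a brightest probe at 9.05 while its second probe stood at 2.33. Elk1, a transcription factor, had 8.77 against -5.63 for its other probe. Kctd14 had 8.76 against -4.80. The dimmer probes of Elk1 and Kctd14 thus lay in the dim range while the brighter ones ranked 15 and 16. Exosc2, an exosome subunit, and 2610028H24Rik had 8.85 and 8.63, the first from 1 probe only and the second with a second probe at -0.44. Rn4.5s, a small non-coding RNA, stood at 8.77 on 1 probe. Slc10a1, the basolateral bile acid uptake carrier, ranked 17 at 8.75 although its second probe read 3.43. Of the 14 genes among the brightest 25 with more than 1 probe, 6 had a second probe over 3 log2 steps dimmer, and across 5512 genes with several probes the gap between the brightest and the dimmest probe had a median of 2.31. In contrast, the probes of Apoa2 (9.31 and 8.87), C3 (second probe 8.50), Trf (second probe 8.90) and Serpina1e (8.81 and 8.69) lay close together. Among the 100 brightest probes 18 matched no gene symbol, the first of them at 9.16 (rank 4). Probes without a symbol are left out of the gene ranks, the gene lists and the shares of summed signal.

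The promoters of some of these genes are shown because secreted proteins, cytochrome P450 enzymes and ribosomal proteins were mostly bright while their upstream letters differed. The 100 bases before the start are from RefSeq (build GRCm38.p6), with the letters GTTAAT (or ATTAAC on the other strand), in capitals.
Alb, chr5:90460770-90460869, plus strand: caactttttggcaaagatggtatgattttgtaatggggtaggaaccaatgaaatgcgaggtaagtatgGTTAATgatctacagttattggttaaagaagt
Serpina1a, chr12:103863620-103863719, minus strand: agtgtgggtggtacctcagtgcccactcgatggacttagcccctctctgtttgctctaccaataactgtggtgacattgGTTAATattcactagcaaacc
Gc, chr5:89457899-89457998, minus strand: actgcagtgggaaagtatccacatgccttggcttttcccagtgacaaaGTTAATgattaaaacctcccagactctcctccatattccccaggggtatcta
Fgb, chr3:83049864-83049963, minus strand: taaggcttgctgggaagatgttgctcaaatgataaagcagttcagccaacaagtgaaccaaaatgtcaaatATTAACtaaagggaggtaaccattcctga
These 4 are shown because they hold the letters within 100 bases of the start, and they do not stand for the brightest secreted genes. The promoters of Apoa2, Ambp, C3, Ahsg and Serpinc1 held none in the 250 bases before the start. Such letters were present in that stretch in 9 of 23 promoters of plasma carriers and protease inhibitors (39.1%), against 6.43% of all 32851 promoters. The share was 17.6% for coagulation factors (3 of 17), 7.69% for apolipoproteins (1 of 13) and 20.2% over all secreted proteins (18 of 89). Olfactory receptors, which were mostly not detected, had 16.5% (151 of 914). In promoters of bright genes as a whole the share was 6.73%, close to that of all promoters. The Serpina1 genes are near-identical copies, so that their promoters do not count as separate cases.

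A TATA box in the form TATAAA, searched on the gene's strand in the 50 bases before the start, is shown in capitals for an intracellular fatty acid carrier and a cytochrome P450.
Fabp1, chr6:71199779-71199878, plus strand: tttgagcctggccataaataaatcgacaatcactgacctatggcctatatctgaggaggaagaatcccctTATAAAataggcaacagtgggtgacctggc
Cyp2e1, chr7:140763719-140763818, plus strand: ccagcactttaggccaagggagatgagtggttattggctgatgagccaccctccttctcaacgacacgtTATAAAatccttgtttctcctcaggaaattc
These letters stood in 8 of 29 promoters of cytochrome P450 enzymes (27.6%) against 2.63% of all promoters, in 9 of 89 promoters of secreted proteins (10.1%), and in 0 of 67 promoters of ribosomal proteins. Other metabolic lists lay near all promoters, with 3.33% for fatty acid, triglyceride and cholesterol synthesis and 3.70% for urea cycle and amino acid catabolism. By band the share was 2.8% for bright, 3.20% for dim and 5.94% for not detected genes.

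The 2 ribosomal protein promoters below hold none of the searched letters in this stretch and are shown for their CG dinucleotides, 10 and 9 in 100 bases.
Rps2, chr17:24719963-24720062, plus strand: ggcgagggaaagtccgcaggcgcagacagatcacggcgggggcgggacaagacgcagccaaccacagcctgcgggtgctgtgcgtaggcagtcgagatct
Rpl13a, chr7:45128746-45128845, minus strand: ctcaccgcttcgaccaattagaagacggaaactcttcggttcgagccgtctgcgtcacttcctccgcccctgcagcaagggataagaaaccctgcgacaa
From 250 bases before to 50 after the start, the median count of CG was 21 in ribosomal protein promoters, 20 in those of respiratory chain subunits, 4 in those of secreted proteins and 2 in those of cytochrome P450 enzymes. It was 20.5 for fatty acid, triglyceride and cholesterol synthesis and 8 for urea cycle and amino acid catabolism. By band it was 17 for bright, 20 for moderate, 12 for dim and 3 for not detected genes, against 14 over the promoters of all named genes and 7 over all promoters in the table. The letters CAAAGTCCA (HNF4, both strands) stood in 0.612% of bright promoters and 0.384% of all, and TTGCGCAA (C/EBP) in 0.428% and 0.164%, which are 10 and 7 bright promoters. A match of letters is a description and not a bound site, and 16551 of the 20886 genes had a promoter in the table.

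Of 101 genes on the array for proteins that hepatocytes secrete, 78 were bright (77.2%, against 7.63% of all named genes) and 0 were not detected. The carriers and protease inhibitors of plasma had 24 of 25 bright with a median level of 8.42, and the exception was Apcs (serum amyloid P) at 1.77. Among the apolipoproteins 10 of 12 were bright. Apoa4 (2.18) and Apoa5 (3.27) were moderate, whereas Apob, the backbone of very-low-density lipoprotein, read 6.57, 6.22 and 5.98. Coagulation factors had 15 of 20 bright, led by Kng1 (kininogen, 8.79), Fgb (fibrinogen beta, 8.74) and Serpinc1 (antithrombin, 8.63), and F2 (prothrombin) differed by no more than 1.02-fold between arrays at 7.82. F11 (2.08) and Pros1 (protein S, 1.23) were moderate. Complement had 14 of 20 bright from C3 down, with C6 (-0.44) and Masp1 (-0.80) lowest.

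The genes listed as acute-phase proteins, which rise in inflammation, were dimmer and more spread. This depends on how the list was drawn: Hp (8.52), Hpx (8.02), Fgb and C3 were counted in other secreted lists. Of the 14 genes listed 6 were bright, 7 moderate and 1 dim, with a median level of 2.87. Their median SD was 0.31, against 0.15 over all ranked genes. Saa1 and Saa2, the serum amyloid A proteins, had means of 4.59 and 5.03. Saa3 read 0.52, -0.62 and 0.23. Hamp, hepcidin, read 6.17, 6.79 and 5.65, a 2.21-fold range. The major urinary proteins, pheromone carriers of high sequence identity whose probes may bind several copies, had 9 of 10 bright. Mup19 read 7.61, 8.25 and 8.07, and Mup20 5.45, 6.12 and 6.01. All 10 were lowest in Ctrl 1, where 31.2% of all ranked genes were lowest.

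Metabolic enzymes of the hepatocyte were bright in 148 of 215 cases (68.8%), with 59 moderate, 8 dim and 0 not detected. In the urea cycle and amino acid catabolism 29 of 35 were bright. Ass1 (argininosuccinate synthase) read 7.81, 8.40 and 8.31, and Bhmt (betaine-homocysteine methyltransferase) 8.15, 7.96 and 7.16. Cps1, the first enzyme of the urea cycle, was bright at only 4.54. Fatty acid oxidation and ketogenesis had 22 of 27 bright, with Fabp1 and Acaa2 (7.99) on top. Glucose and glycogen enzymes had 15 of 18 bright. Fbp1 (fructose bisphosphatase) stood at 8.31 and Pck1 (phosphoenolpyruvate carboxykinase) at 7.29, and Pfkl, the liver phosphofructokinase, was lowest at -0.13. The isoforms of other tissues stood apart from these, with a median of -1.32 against 5.63, although Aldoa was bright at 5.02 and Aldoc (3.00) and Slc2a4, the insulin-responsive glucose transporter (1.83), were moderate. G6pc2, the islet glucose-6-phosphatase, was not detected, and the liver form G6pc stood at 5.86.

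Cytochrome P450 enzymes covered the widest span of any hepatocyte class. Of 33 genes, 22 were bright, 7 moderate and 4 dim. Cyp2e1, which oxidises ethanol, was highest and read 9.01, 8.23 and 8.52, and its second probe followed in the same order at 7.61, 6.59 and 7.01. Cyp2d26 (8.31) came next, and Cyp2a4 read 7.88, 7.90 and 8.21. Cyp1a1 (-5.12) and Cyp1b1 (-4.30), induced by aryl hydrocarbons, and Cyp4a12a (-4.50), an enzyme of male liver, were dim. The conjugating enzymes had 18 of 31 bright, led by Gsta3 (8.10) and Mgst1 (7.60), both glutathione transferases. In bile acid synthesis and transport 9 of 18 were bright. Slc27a5, which activates bile acids, read 7.82, 7.83 and 7.85, whereas Cyp7a1, the rate-limiting enzyme of their synthesis, was moderate at 1.28, 1.36 and 2.16 and Slco1a1, an uptake carrier, dim at -3.78. Iron, metal and antioxidant genes had 18 of 23 bright, with Ftl1 (ferritin light chain, 8.62), Selenop (8.11) and Gpx1 (8.05) highest.

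Housekeeping lists were bright in 169 of 196 genes (86.2%) and had the lowest median SDs of all lists. All 77 ribosomal protein genes were bright, from Rpl10 (8.14) to Rps19 (4.84), with a median SD of 0.058. Of the respiratory chain subunits encoded in the nucleus 67 of 72 were bright, led by Cox6a1 (8.41) and Atp5b (7.81), with a median SD of 0.067. Proteasome subunits had 17 of 31 bright and 14 moderate. Among common reference genes, levels ran from Ppia (8.26) and Gapdh (8.18), near the top of the list, to Tbp (-1.14) and Tfrc (-1.69), the transferrin receptor, so that this list alone covered 3 bands.

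**Figure D2:**
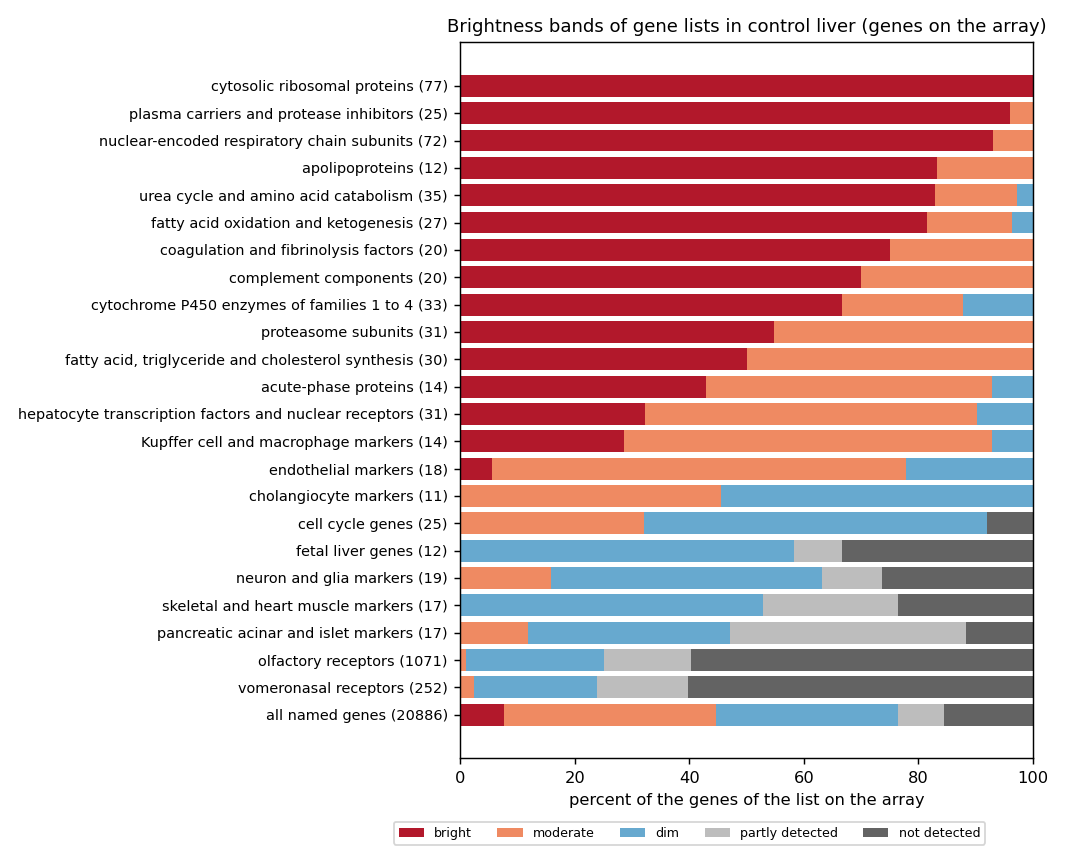
Share of each gene list in the 5 brightness bands of control liver (horizontal axis, percent of the list's genes on the array, whose number stands in brackets). Ribosomal proteins (77 of 77) and plasma carriers (24 of 25) are almost wholly bright, and olfactory receptors are mostly not detected (640 of 1071).

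The regulatory lists held 140 transcription factors, receptors, clock, immediate early, interferon, cell cycle and fetal genes. Of these 20 were bright (14.3%), 68 moderate, 43 dim and 6 not detected (4.29%). The shares over all named genes were 7.63% bright, 37.0% moderate, 31.8% dim and 15.5% not detected. Hnf4a, the hepatocyte nuclear receptor, was the brightest gene of the list of hepatocyte transcription factors and nuclear receptors at 6.48, 6.59 and 6.55. Mlxipl, the carbohydrate response factor, stood at 5.97 and Ppara, the fatty acid receptor, read 5.75, 4.60 and 5.19. Cebpa (2.99) was moderate, and Prox1 (-1.64) and Onecut1 (-2.87) were dim. Among receptors, Adipor2 (adiponectin receptor, 7.09) and Asgr2 (asialoglycoprotein receptor, 6.56) led, Gcgr (glucagon receptor) stood at 5.95, and Glp1r was lowest at -4.37. Of 25 cell cycle genes 0 were bright, 8 moderate, 15 dim and 2 not detected, where 15.5% of all named genes were not detected. Ccnd1 was highest at 2.69, and Aurkb and Bub1, kinases of mitosis, were the genes not detected. Of 12 fetal liver genes 7 were dim and 4 not detected. Afp, alpha-fetoprotein, was dim with -3.12, -3.16 and -3.12.

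Genes of both ends of the liver lobule were present in the RNA. Of 14 periportal genes 13 were bright, against 7.63% of all named genes, with Ass1, Pck1 (7.29) and Arg1 (6.30) highest and Cdh1 (E-cadherin, -0.97) moderate. Most of these periportal genes were also counted in the metabolic lists above. Of 14 pericentral genes 6 were bright, among them Cyp2e1, Rgn (7.51) and Glul (glutamine synthetase, 5.46), and Lgr5 (-1.09) and Axin2 (-3.11), targets of Wnt signalling, were lowest.

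Xist, the X inactivation transcript of female cells, was moderate at 0.79, 0.68 and 0.42. The 4 Y-linked genes Uty, Eif2s3y, Ddx3y and Kdm5d were not detected, with means from -9.19 to -8.59. Of 14 genes known to be higher in female liver, 6 were bright, 7 moderate and 1 dim. The bright ones included Cyp2a4, Hamp2 (7.47), Cyp4a14 (6.56), Cyp2b13 (5.44) and Cyp3a16 (4.47), and Cux2 (-1.17) and A1bg (-2.67) were lowest. The shares over all named genes were 7.63% bright, 37.0% moderate and 31.8% dim. Of 12 known to be higher in male liver, 2 were bright, namely Mup20 (5.86) and Gstp1 (4.48), 3 moderate, 6 dim and 1 well above background on part of the arrays. Cyp4a12a and Cyp4a12b read -4.50 and -4.37.

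Markers of the other cells of the liver were bright less often than the secreted and metabolic lists of hepatocytes. Of 94 genes 12 were bright (12.8%), 46 moderate, 31 dim and 0 not detected. Over all named genes 7.63% were bright, 37.0% moderate, 31.8% dim and 15.5% not detected. Bulk RNA cannot tell fewer cells of a type from less RNA per cell. Kupffer cell markers had 4 of 14 bright: Cd5l (5.49), Csf1r (4.67), Vsig4 (4.33) and Marco (3.82). Of 18 endothelial markers 1 was bright, the sinusoidal lectin Clec4g (4.59), and 13 moderate, among them Stab2 (3.43) and Kdr (3.41). Stellate cell and fibroblast markers had Dcn (5.96) and Ecm1 (5.68) bright and Des (-3.63) lowest. Of 11 cholangiocyte markers 0 were bright and Bicc1 was highest at 1.08. Haemoglobin RNA was bright, with Hba-a2 at 7.74, 8.07 and 8.19, a gene with a near-identical copy. Of 15 lymphocyte markers only Cd4 was bright (4.61), and its second probe read -3.97.

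Of 1559 genes of other tissues 866 were not detected (55.5%, against 15.5% of all named genes), 404 were dim, 46 moderate and 2 bright (0.128%). The not detected share rested on 4 large families taken by symbol (olfactory and vomeronasal receptors, keratin-associated proteins and beta-defensins), with 836 of 1417 not detected (59.0%). In the other 12 lists, of tissue markers and isoforms, 30 of 142 were not detected (21.1%), 64 dim and 20 moderate. The bright ones were Aldoa and Fabp2, a fatty acid carrier named as an intestinal marker, at 5.49, 5.10 and 4.78. In the intestine list Cdx2 and Muc2 were not detected. Of 1071 olfactory receptor genes 640 were not detected, 257 dim, 11 moderate and 0 bright, with Olfr544 highest at 2.01. Of 252 vomeronasal receptor genes 152 were not detected. Of 17 muscle markers 9 were dim, from Tnni2 (-2.54) down, and 4 not detected, including Myh4 and Mb. The brightest members of mostly dim lists included Snap25 (2.47) among neuronal markers, Trp63 (3.25, second probe -8.83) among epidermal markers and Amy2a5 (1.66) among pancreatic markers, which had 3, 2 and 2 moderate members. Of 963 long non-coding RNA genes 6 were bright (0.623%) and 34.0% not detected, against 7.95% and 14.5% of 19709 protein-coding genes.

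Across the 28168 ranked probes, which are not independent replicates, Pearson's r was 0.989 for Ctrl 1 and 2, 0.992 for Ctrl 1 and 3 and 0.993 for Ctrl 2 and 3. The SD of the log2 difference was 0.504, 0.442 and 0.389 for these pairs. In the 9 pairs within the other groups it ran from 0.351 to 0.544. Among bright probes the pairs with Ctrl 1 had 73 and 59 probes more than 2-fold apart and the pair of Ctrl 2 and 3 had 7, and the SDs were 0.408, 0.384 and 0.186. In the 9 pairs within the other groups the SD of bright probes ran from 0.202 to 0.355, below that of both pairs with Ctrl 1. The count of bright probes more than 2-fold apart did not separate them in this way. It ran from 14 (DJ526 1 and 3) to 65 (RS 1 and 3), and RS 2 and 3 had 63, against 59 for Ctrl 1 and 3.

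The SD between arrays grew as signals dimmed. With the ranked probes in 10 equal parts, its median was 0.092 in the brightest part and 0.278 in the dimmest, and 0.156 over all ranked probes. For 316 ranked probes printed in 10 spots per array, the median SD between spots of 1 array was 0.0718, against 0.123 between arrays. In the dimmest part, with 21 such probes, the SD between repeated spots was 0.242 and that between arrays 0.239. The SD between spots is of single spots and that between arrays is of values averaged over spots, so they are not directly comparable.

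**Figure D3:**
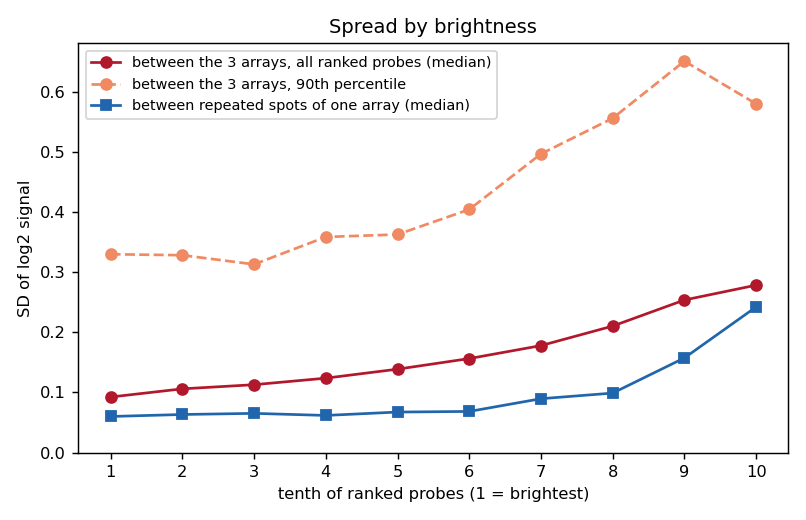
Standard deviation of log2 signal (vertical axis) by position in the ranking, in 10 equal parts (1 is brightest), between the 3 Ctrl arrays and between repeated spots of 1 array. The median between arrays rises from 0.092 to 0.278. The spread between arrays is of probe values averaged over their spots, and that between spots is of single spots.

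Only 207 of 15966 ranked genes (1.3%) had an SD over 1 between the 3 mice. The array farthest from the other two was Ctrl 1 in 57 genes as the higher and 48 as the lower one, Ctrl 2 in 60 and 21, and Ctrl 3 in 13 and 8. Ctrl 1 thus made up 27.5% as the higher and 23.2% as the lower array, against 23.1% and 17.2% over all ranked genes, and Ctrl 2 29.0% and 10.1% against 15.03% and 16.65%. Of 65 bright genes with an SD over 0.5, Ctrl 1 was the far array in 34 as the lower (52.3%) and in 19 as the higher one (29.2%), the second share lying near that over all ranked genes. Of the 15 genes with the largest SD, Fabp5 was the bright one and the others were dim or moderate. Chil4 and Chil3, chitinase-like proteins, read -6.35, 2.17 and -6.56, and -3.58, 3.55 and -1.73. Reg1, a regenerating-islet-derived protein, read -6.04, 0.88 and -6.03. Spink4, a protease inhibitor of mucous epithelium, read -4.73, 0.64 and -4.69. Tff2 (a trefoil factor), Muc4 (a mucin), B4galnt2 and AA467197 were likewise highest in Ctrl 2, which was the odd array, always as the higher one, for 8 of the 15 genes with the largest SD. The remaining ones were Gm10804, Cfd and Cidea, which were highest in Ctrl 1, and Chrna4, Plekhd1, Pnpla5 and Fabp5, which were lowest there.

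**Figure D4:**
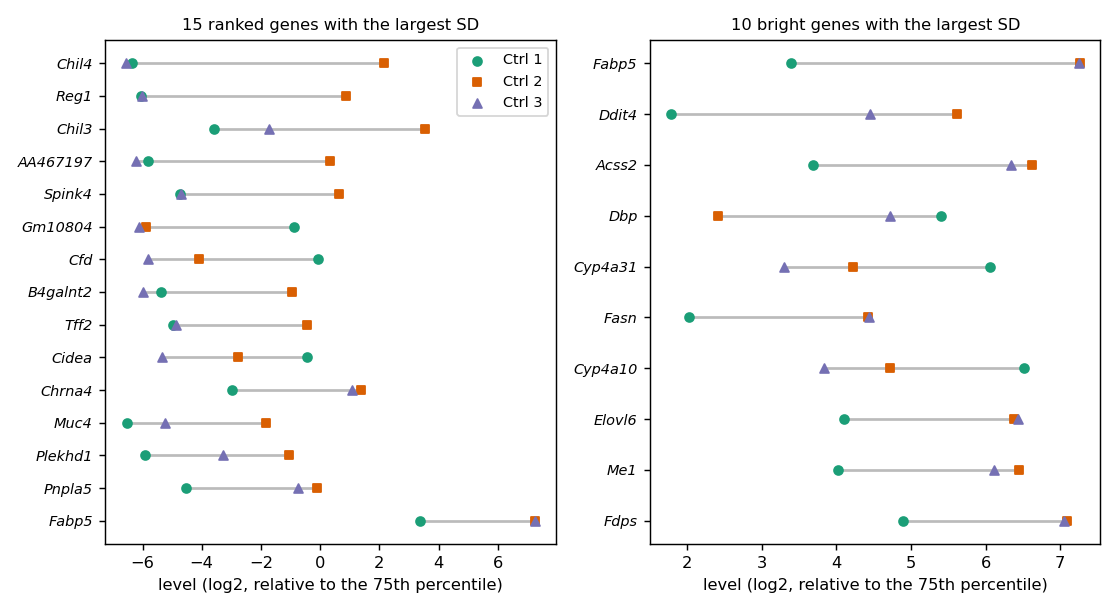
Level of each Ctrl array (symbols) for the 15 ranked genes with the largest SD (left) and the 10 bright genes with the largest SD (right), on a log2 axis relative to the 75th percentile. Ctrl 2 stands alone on the right for 8 genes of the left panel and Ctrl 1 alone on the left for 7 genes of the right panel.

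Of 30 genes of fatty acid, triglyceride and cholesterol synthesis 27 were lowest in Ctrl 1 (against 31.2% of all ranked genes), and their median deviations from the mean of the 3 arrays were -1.01, 0.55 and 0.40. An SD over 1 was found in 12 of the 30, against 1.3% of all ranked genes. Fasn, fatty acid synthase, read 2.02, 4.42 and 4.44, a 5.37-fold range. Scd1 (the stearoyl-CoA desaturase) read 5.93, 7.99 and 7.90, and Acly (ATP citrate lyase) 5.53, 7.51 and 7.51. Elovl6 (fatty acid elongase), Me1 (malic enzyme) and Acss2 (acetyl-CoA synthetase) had ranges of 5.01-, 5.36- and 7.66-fold. In cholesterol synthesis, Sqle (squalene epoxidase) read 1.64, 4.46 and 4.52, and Fdps (farnesyl diphosphate synthase) 4.90, 7.09 and 7.05. Pnpla3 read -0.86, 2.68 and 1.04. Ctrl 1 was the low array in each of these genes. Dgat1, Lpin2 and Srebf1 were the members not lowest in Ctrl 1, and Srebf1, the factor that drives fatty acid synthesis, read 2.03, 2.21 and 2.02.

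Of 27 genes of fatty acid oxidation and ketogenesis 25 were highest in Ctrl 1, where 40.8% of all ranked genes were highest, with median deviations of 0.26, -0.11 and -0.14. Cpt1a, the gate of mitochondrial import, read 4.61, 3.83 and 4.08, and Acadm 5.58, 4.81 and 4.88. Larger were the ranges of the fatty acid omega-hydroxylases: Cyp4a10 read 6.52, 4.72 and 3.83, Cyp4a31 6.05, 4.22 and 3.30, and Cyp4a14 7.71, 6.13 and 5.85. Fabp5, another fatty acid carrier, and Ddit4, an inhibitor of growth signalling, were lowest in Ctrl 1 at 3.39 against 7.26 and 7.26, and at 1.78 against 5.62 and 4.45.

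Markers of fat cells were highest in Ctrl 1 too, in 6 of the 6 (5 with quantile normalization) that were well above background on all arrays. Of all ranked genes 40.8% were highest there. Cfd (adipsin) read -0.08, -4.10 and -5.81. Adipoq (adiponectin) read -2.80, -6.59 and -6.65, Plin1 -4.04, -6.94 and -6.59, and Ucp1, the uncoupling protein of brown fat, -0.74, -8.61 and -9.14, each well above background on 1 array. The summed level of the list was 2.91, 1.83 and 2.10 on the log2 scale. Fabp4, its brightest member, read 1.88, 1.15 and 1.55. The part of these cells in the lipid genes of Ctrl 1 was not tested.

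All 14 Kupffer cell markers were highest in Ctrl 3, where 27.7% of all ranked genes were highest, with median deviations of -0.13, -0.30 and 0.45. Marco, a scavenger receptor, read 3.05, 3.15 and 5.24. Of 14 lymphocyte markers 12 and of 9 erythroid markers 8 were highest in Ctrl 3 too. Of 7 neutrophil markers well above background on all arrays, 5 were highest in Ctrl 3. S100a8 and S100a9, calcium-binding proteins of neutrophils, read -1.16, -1.89 and 1.05, and 0.58, -0.22 and 2.72. Mpo, myeloperoxidase, read -5.42, -5.45 and -2.32. Ltf (lactoferrin) and Elane (neutrophil elastase) were highest in Ctrl 2, with -5.37, -1.48 and -2.11 for Ltf and 0.91, 1.35 and 1.30 for Elane.

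Of 11 cholangiocyte markers 10 were highest in Ctrl 2, where 31.5% of all ranked genes were highest. Krt19, a duct keratin, read -2.39, 0.60 and -2.31, and Epcam -4.24, -3.13 and -4.19. The mucous genes Tff2, Muc4 and Spink4 described above were highest in the same mouse. Their relation to duct cells was not tested.

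The clock genes varied as well, with an SD over 1 in 4 of the 18 ranked ones, against 1.3% of all ranked genes. Dbp, an output of the clock, read 5.40, 2.41 and 4.71, and Nr1d1 (Rev-erb alpha) -1.30, -3.88 and -1.82. Arntl (Bmal1) read -2.54, 0.58 and -1.80 and Cry1 -3.75, -1.60 and -2.64. Ctrl 2 was thus lowest for the former pair and highest for the latter.

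The plasma carriers and protease inhibitors had median deviations of 0.048, -0.0055 and -0.031.

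**Figure D5:**
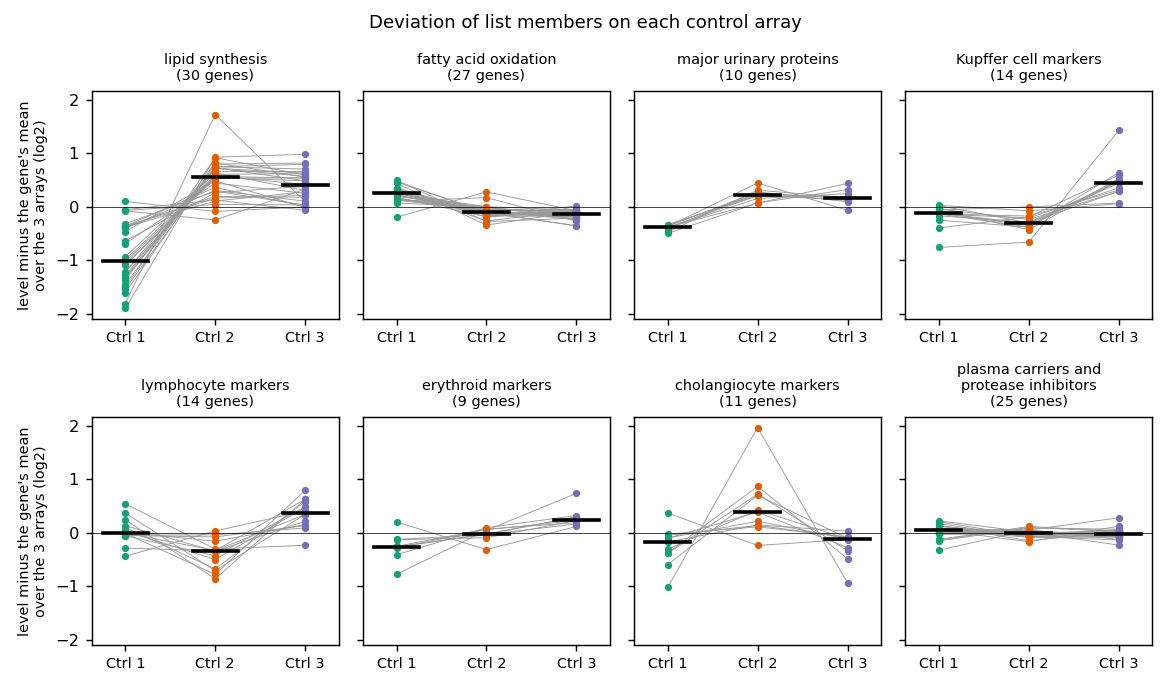
Deviation of each list member from its own mean over the 3 Ctrl arrays (log2, points joined by gene, black bars are medians), for ranked genes of 8 lists. Lipid synthesis falls to a median of -1.01 in Ctrl 1, Kupffer cell markers reach 0.45 in Ctrl 3, and plasma carriers stay near 0.

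The top of the ranking was shared by all diets. Of the 100 brightest genes of Ctrl, 96 were among the 100 brightest of RS, 94 among those of DJ and 94 among those of DJ526. For the brightest 500 the shares were 96.6%, 96.8% and 96.6%.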

How the data were processed

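Liver RNA of 12 mice was hybridised to 1-colour Agilent mouse arrays, and the 3 Ctrl arrays were described. Per the file headers, the authors quantified the scans with Feature Extraction 11.5.1.1, and the deposited files hold its background-subtracted processed signal, an intensity on a linear scale. A second deposited table, of intensities scaled to 1 common mean per array, served as an alternative. Every column of it belonged to a sample of the series. Control spots and outlier-flagged spots were left out, spots of a probe were averaged, and log2 of the array's 75th percentile was subtracted. Averaging and ranking used Python 3.11.15, and quantile and normexp alternatives used limma 3.58.1. Probes were named through RefSeq transcripts of GRCm38.p6 (27508 of 39429), so that names hold as far as the array's accessions are current. A probe counted as well above background where no more of its unflagged spots lacked the flag than carried it. The small number of arrays limits the precision. The SD over 3 mice holds biological and technical spread together, within 1 slide. No test was run, since 1 group was described. The ranking was tested on simulated data. The members and the 54 gene lists were chosen with earlier results of these data known. Named genes were the 25 brightest, the 15 with the largest SD and the 10 bright ones with the largest SD, the highest members of each list and those against its trend, Alb, Apoa1 and Ttr, and the sex-linked members. Genes beyond these were chosen after their values were seen. Some genes that these rules name are not reported here.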

Additional observations from a re-analysis of the deposited data

How the results depend on the processing

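Counting probes well above background on at least 1 array in place of all 3 raised their share from 71.4% to 81.2%, and leaving out 1 mouse in turn gave 71.7% to 75.6%. The spread depended on how dim signals were treated. With normexp background correction (offset 50) the median SD fell to 0.112 and the SD of the log2 difference to 0.350 (Ctrl 1 and 2), 0.312 (Ctrl 1 and 3) and 0.254 (Ctrl 2 and 3). With no filter on dim probes these were 0.226, 0.739, 0.653 and 0.598. Leaving out 1 mouse gave a median SD of 0.105 to 0.139, lowest without Ctrl 1. These are SDs over 2 arrays and are not directly comparable with the SD over 3. Of the 100 brightest genes 92 to 100 were also among the brightest 100 under quantile normalization, no scaling, normexp, the deposited table, with outlier-flagged spots kept and without any 1 mouse. The bright counts of secreted, metabolic and housekeeping genes and the not detected count of other-tissue genes stayed within 1.5 times. The counts of list members highest or lowest in 1 array, whose alternatives were chosen after seeing the data, did so too, except for ribosomal proteins: 58 of 77 were highest in Ctrl 1, but 24 with no scaling. No paired analysis was possible because no test compared groups. On 3 arrays of 1 slide, the order of close levels is least certain among the dimmest ranked probes, where the median SD was 0.278. Probes of 1 gene disagree by more than the arrays do.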
